A study of Mus musculus with 112 samples.

Results

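The genes described here are 10 of the endothelial programme, Kdr, Flt1, Nrp1, Aplnr, Etv2, Tek, Tie1, Cdh5, Pecam1 and Robo4, which were chosen by name and read by their symbols from the count tables of 112 mouse RNA-seq libraries that list 25209 genes each. The libraries form 34 groups of 2 to 11 and come from embryonic stem cells (ESCs) kept naive in 2i/LIF, from embryoid bodies (EBs) grown for 6 days as hanging drops, from ESCs moved to serum for 4 days, and from epiblast-like cells (EpiLCs) of day 2. The mutant lines lack the histone demethylase LSD1 (LSD1 KO, made by removing the promoter and first exon of Kdm1a), carry a catalytically inactive LSD1 (LSD1 CI), or lack the corepressors RCOR1, RCOR2 or both (RCOR1 KO, RCOR2 KO, RCOR1/2 DKO). In ESCs, 3 further groups lack the H3K4 methyltransferase MLL4 alone (MLL4 KO), together with LSD1 (MLL4/LSD1 DKO), or in LSD1 CI cells (MLL4 KO/LSD1 CI). Doxycycline (DOX) was given to, or withheld from, LSD1 KO ESCs carrying an inducible LSD1 (LSD1Res), RCOR1/2 DKO ESCs carrying it (DKO+LSD1) and LSD1 KO ESCs. LSD1 KO cells of each culture were also treated with A485, an inhibitor of the acetyltransferases p300 and CBP, or its vehicle DMSO, and the serum and EpiLC groups of WT and LSD1 CI cells and 1 pair of WT EB libraries received DMSO too. The EB groups were LSD1 KO (n = 2), LSD1 CI (n = 4), RCOR1 KO (n = 4), RCOR2 KO (n = 2) and RCOR1/2 DKO (n = 4) against WT (n = 7), then LSD1 KO with A485 (n = 2), LSD1 KO with DMSO (n = 2) and WT with DMSO (n = 2). The lines are clonal, and the study states that its RNA-seq experiments used 2 independent clones. Groups of 4 may thus hold more than 1 library per clone, and the labels do not name the clones. The labels do not say which libraries are separate cultures, so p-values measure the spread between libraries, which may be technical.

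Endothelial cells arise in the embryo, and in EBs, from mesoderm that carries the VEGF receptor VEGFR2, the product of Kdr. The ETS factor ETV2 acts briefly in those precursors to start the endothelial and blood programmes, and the maturing cells then add the angiopoietin receptor system, VE-cadherin junctions and the surface protein PECAM1. Several of these genes are not restricted to vessels: PECAM1 is also a surface protein of mouse ESCs, and Nrp1, Aplnr and Kdr are transcribed in mesoderm at large.

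Of the 10 genes, 7 had a promoter window in the RefSeq table used, running from 250 bases before to 50 bases after the annotated start on GRCm38.p6, and Pecam1, Cdh5 and Aplnr had none. Of the 7, the 5 called most often in the comparisons below are printed here 5′ to 3′ on the strand of the gene, with capitals at the letters of ETS cores (CCGGAA or AGGAAG), the GATA core (AGATAA) and the TATA box (TATAAA), searched on both strands. These windows are Kdr at chr5:75978406-75978705 on the minus strand, Nrp1 at chr8:128358823-128359122 on the plus strand, Flt1 at chr5:147725962-147726261 on the minus strand, Tek at chr4:94739039-94739338 on the plus strand and Robo4 at chr9:37401722-37402021 on the plus strand.
Kdr: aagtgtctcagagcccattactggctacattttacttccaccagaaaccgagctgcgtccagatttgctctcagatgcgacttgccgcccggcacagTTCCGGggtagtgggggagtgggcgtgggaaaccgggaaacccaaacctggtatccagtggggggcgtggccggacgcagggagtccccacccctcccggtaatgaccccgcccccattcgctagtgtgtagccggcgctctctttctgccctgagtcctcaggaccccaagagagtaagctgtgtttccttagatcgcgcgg
Nrp1: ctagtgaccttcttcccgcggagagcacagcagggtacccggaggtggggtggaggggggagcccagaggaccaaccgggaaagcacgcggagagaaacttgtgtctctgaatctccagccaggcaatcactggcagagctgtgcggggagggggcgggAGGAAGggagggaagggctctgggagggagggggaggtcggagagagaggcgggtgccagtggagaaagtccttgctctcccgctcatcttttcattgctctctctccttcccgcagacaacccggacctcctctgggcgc
Flt1: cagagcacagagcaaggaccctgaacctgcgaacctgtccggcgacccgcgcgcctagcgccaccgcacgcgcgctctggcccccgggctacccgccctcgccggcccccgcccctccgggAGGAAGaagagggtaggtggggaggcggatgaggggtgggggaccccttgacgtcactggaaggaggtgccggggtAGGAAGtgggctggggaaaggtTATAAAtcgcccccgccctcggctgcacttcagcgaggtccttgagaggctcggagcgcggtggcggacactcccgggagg
Tek: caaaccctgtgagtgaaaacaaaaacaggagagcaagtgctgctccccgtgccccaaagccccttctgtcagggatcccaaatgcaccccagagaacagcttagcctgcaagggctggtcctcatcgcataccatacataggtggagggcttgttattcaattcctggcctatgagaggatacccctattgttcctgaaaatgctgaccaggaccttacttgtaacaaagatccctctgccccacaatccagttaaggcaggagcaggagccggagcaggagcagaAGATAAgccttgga
Robo4: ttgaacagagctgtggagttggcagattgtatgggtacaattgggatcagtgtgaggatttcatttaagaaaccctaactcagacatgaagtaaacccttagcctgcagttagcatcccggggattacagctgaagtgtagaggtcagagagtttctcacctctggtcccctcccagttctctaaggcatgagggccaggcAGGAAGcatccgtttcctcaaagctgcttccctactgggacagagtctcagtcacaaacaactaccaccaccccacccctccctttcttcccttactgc
An ETS core stood in the windows of Kdr, Nrp1, Flt1 and Robo4 printed above and in those of Tie1 and Etv2, and no ETS core was found in the Tek window, which holds the GATA core. Of 32544 promoter windows of this length, 45.0% hold an ETS core on some strand, 11.2% the GATA core and 13.6% the TATA letters that the Flt1 window holds. These matches are a description of the sequence and not of binding.

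In the deposited tables the genes are placed on mm9. Kdr lies at chr5:76328852-76374480, Flt1 at chr5:148373180-148537587, Nrp1 at chr8:130882973-131029375, Aplnr at chr2:84976517-84980080, Etv2 at chr7:31418635-31420871, Tek at chr4:94405980-94541667, Tie1 at chr4:118143796-118162454, Cdh5 at chr8:106625525-106668402, Pecam1 at chr11:106515527-106576595 and Robo4 at chr9:37209557-37221608. Their summed exon lengths ran between 1048 bases for Etv2 and 10960 bases for Flt1, and Aplnr is counted over 1 exon. An exon of the predicted gene Gm29682 on the other strand lies within Cdh5, and Nrp1 contains Mir1903. The counting was stranded.

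The 112 libraries held 17221431 to 58186717 counts each, and the 29 EB libraries among them 30146952 to 49939011. Levels are given as CPM, the counts-per-million value over all genes listed. The targeted genes followed their labels with 1 exception. Kdm1a had 7.13 to 7.23 CPM in LSD1 KO EBs and 133 to 153 CPM in LSD1 CI EBs, against 179 to 224 CPM in WT EBs. Rcor2 was at 44.6 and 53.8 CPM in the EBs labelled RCOR2 KO and at 2.19 to 5.30 CPM in RCOR1/2 DKO EBs, against 121 to 153 CPM in WT EBs, while ESCs of the same RCOR2 KO label averaged 2.62 CPM. Results of the EBs labelled RCOR2 KO therefore come from libraries in which Rcor2 RNA was only partly lower. Each EB is a mixture of cell types, and in such bulk RNA fewer endothelial or mesoderm cells and less RNA per cell cannot be told apart.

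Per kilobase of exon, Nrp1, the VEGF and semaphorin co-receptor, had the highest level of the 10 genes in WT EBs, at 82.8 ± 42.8 CPM per kb (SD, n = 7). Aplnr, the receptor of apelin, followed at 23.4 ± 8.39 and Kdr at 20.7 ± 11.6 CPM per kb, a pair that did not differ beyond its spread. Flt1, the VEGF receptor VEGFR1, was at 7.88 ± 2.52 CPM per kb and Etv2 at 3.75 ± 1.99 CPM per kb. The genes of more mature endothelium were lower on this scale: Pecam1 had 2.86 ± 1.57, Cdh5 (VE-cadherin) 2.38 ± 2.31, Tek (TIE2, the angiopoietin receptor) 1.12 ± 0.834 and Tie1 (its orphan partner) 0.664 ± 0.728 CPM per kb. Neighbours in that order, from Etv2 to Tie1, lay within each other's spread. Robo4, a roundabout receptor of endothelium, was lowest at 0.157 ± 0.0753 CPM per kb.

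The order in WT ESCs was another. Pecam1 led at 29.0 ± 5.55 CPM per kb (SD, n = 11), Tek followed at 2.29 ± 0.627 CPM per kb, and Etv2 was at 0.736 ± 0.276 CPM per kb. Each of the other 7 genes averaged 0.137 CPM per kb or less, down to 0.00329 CPM per kb for Cdh5, which had 6 counts over all 11 libraries. Pecam1 and Tek were thus already transcribed in ESCs before any differentiation.

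WT EBs differed from WT ESCs in 9 of the 10 genes under edgeR's quasi-likelihood test, with calls made at an adjusted p under 0.01 and a log2 fold change beyond 1 either way. Of all 18702 genes tested 38.7% were called, 23.4% up and 15.3% down. Nrp1 ran between 106 and 721 CPM in WT EBs (median 627), against 0 to 0.435 CPM in WT ESCs (median 0.105), a log2 fold change of 11.65 (SE 0.41, adjusted p = 8.42e-30). Aplnr ran between 26.9 and 115 CPM in WT EBs (median 90.0), and averaged 0.0444 CPM in WT ESCs, with 20 counts in all. Kdr ran between 34.9 and 294 CPM in WT EBs (median 169), against 0.514 to 1.74 CPM in WT ESCs (median 1.11). For these 3 genes every WT EB library lay above every WT ESC library. Flt1 (log2 fold change 6.71), Cdh5 (8.91), Tie1 (4.32), Etv2 (2.17) and Robo4 (1.64) also rose in WT EBs. Pecam1 fell, with 2.24 to 16.4 CPM in WT EBs (median 7.70) against 68.3 to 123 CPM in WT ESCs (median 92.3), a log2 fold change of -3.50 (SE 0.26, adjusted p = 5.3e-17). Tek had a log2 fold change of -1.18 that missed the threshold (adjusted p = 0.0112). The Robo4 call (adjusted p = 0.00595) was lost when WT EB library 1 (adjusted p = 0.0333), 4 (0.0134) or 5 (0.0118) was left out. It was also lost with a term for the unplaced-contig split described below (0.0364), and when only these groups were fitted (0.0515).

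The other genes of the programme moved in the same comparison as follows. Among 14 ligands of these receptors 8 rose in WT EBs and 0 fell, with Slit3 at a log2 fold change of 5.02, Sema3a at 10.31 and Sema3e at 5.29, Slit3 being a ligand of the roundabout family and the semaphorins neuropilin or plexin ligands. Among 13 other endothelial transcription factors 11 rose and 0 fell, with Ets1 at 6.01, Sox17 at 7.29 and Mef2c at 12.51. Among 18 other endothelial surface genes 6 rose and 4 fell, and Eng (endoglin, a TGF-beta co-receptor) was among the 4, at -3.15. The median log2 fold change was 5.51 over the 10 genes and 0.09 over all genes tested.

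The 10 genes were not equally stable among WT EB libraries. The highest library exceeded the lowest 23.3-fold for Tie1, 19.5-fold for Cdh5, 10.4-fold for Tek, 8.44-fold for Kdr and 7.33-fold for Pecam1, but only 2.60-fold for Flt1. WT library 5 was the highest for Kdr, Pecam1, Cdh5, Tek, Tie1, Etv2, Aplnr and Nrp1. WT library 6 was the lowest for Cdh5, Tek, Tie1, Robo4 and Etv2, and WT library 2 for Kdr, Pecam1, Flt1, Aplnr and Nrp1.

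Across the 7 WT EB libraries most of the 10 genes varied together. Pearson's r of log2(CPM + 1) was 0.98 between Cdh5 and Tie1 and 0.93 between Cdh5 and Tek, and it was 0.96 between Kdr and Nrp1, 0.95 between Tek and Etv2 and between Pecam1 and Nrp1, and 0.93 between Kdr and Tek. Robo4 and Flt1 went less with the others, with 0.39 between Kdr and Robo4 and 0.08 between Tie1 and Flt1. These are descriptions over libraries that differed in make-up. Pluripotency markers summed to 19.4 CPM in WT library 5 and 198 CPM in WT library 2, and mesoderm markers to 825 and 120 CPM. The part of that make-up in the correlations was not tested. Cdh5, Tek and Tie1 singled out 1 library in each of the 2 other groups with levels near WT. In LSD1 CI EBs, library 4 had 66.2 CPM of Cdh5, 25.6 CPM of Tek and 26.0 CPM of Tie1, while libraries 1 to 3 had 6.08 to 15.7, 1.57 to 5.20 and 0.611 to 4.30 CPM. In RCOR1 KO EBs, library 3 had 34.9, 19.7 and 10.6 CPM of these genes, while the other libraries had 1.56 to 5.50, 1.14 to 3.45 and 0.518 to 1.65 CPM. Flt1 did not follow: it was 103 CPM in that LSD1 CI library, the lowest of its group, and 79.5 CPM in that RCOR1 KO library. The sum of 8 blood markers was 65.9 CPM in RCOR1 KO library 3, against 13.9 to 31.2 CPM in the others of its group, and 51.7 CPM in WT library 5, the highest of the WT EBs. In LSD1 CI EBs it was 58.8 CPM in library 3 and 35.6 CPM in library 4. Ptprc was at 0 in the WT and LSD1 CI EBs, and the part of blood cells in these levels was not tested.

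**Figure D1:**
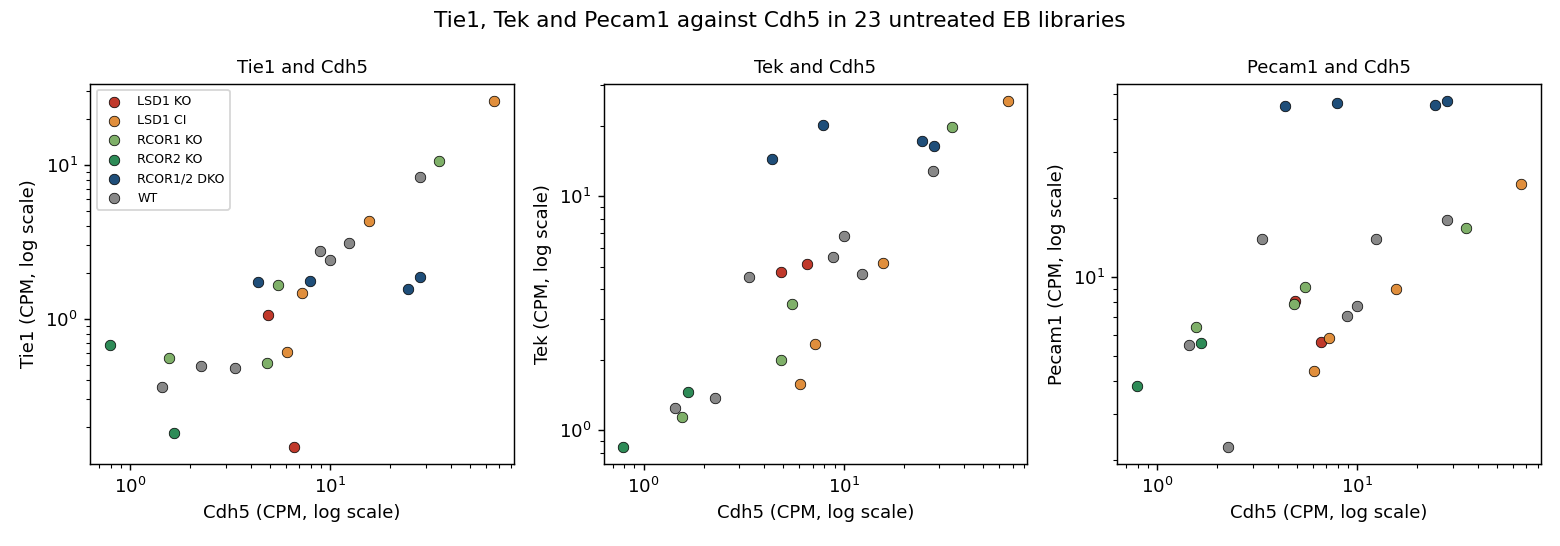
Tie1, Tek and Pecam1 plotted against Cdh5 in 23 untreated EB libraries, both axes in CPM on log scales, each point being 1 library coloured by its group. Tie1 and Tek climb with Cdh5 among WT, LSD1 CI and RCOR1 KO libraries, while the RCOR1/2 DKO libraries keep Pecam1 between 45.1 and 47.0 CPM at any Cdh5 level.

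LSD1 KO EBs had far less Nrp1 and Kdr than WT EBs, and 8 of the 10 genes were not called. Nrp1 was at 5.68 and 11.4 CPM in LSD1 KO EBs, against 106 to 721 CPM in WT EBs (median 627), 57.4-fold lower by the means. Kdr was at 12.2 and 14.8 CPM in LSD1 KO EBs, against 34.9 to 294 CPM in WT EBs (median 169), 11.8-fold lower. Neither gene's LSD1 KO libraries overlapped the WT range. With edgeR the log2 fold change was -5.83 for Nrp1 (SE 0.82, adjusted p = 1.9e-05) and -3.54 for Kdr (SE 0.87, adjusted p = 0.00335), where 13.7% of 17928 genes were called and 5.42% were called down. The Kdr call was lost when LSD1 KO library 1 (adjusted p = 0.0509) or 2 (adjusted p = 0.0454) was left out.

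Aplnr, at 28.1 and 26.5 CPM in LSD1 KO EBs against 26.9 to 115 CPM in WT EBs, missed the threshold (log2 fold change -1.60, adjusted p = 0.0341). Flt1 stayed at 64.3 and 55.3 CPM in LSD1 KO EBs, within the WT range of 49.1 to 127 CPM. Etv2 at 2.13 and 2.31 CPM, Cdh5 at 4.88 and 6.59 CPM, Tek at 4.74 and 5.11 CPM and Pecam1 at 8.08 and 5.63 CPM lay inside the WT ranges as well. Tie1 was at 1.06 and 0.147 CPM in LSD1 KO EBs, and Robo4 at 2.49 and 0.737 CPM, against a WT median of 2.43 CPM for Tie1 and 0.583 CPM for Robo4. Kdr and its co-receptor Nrp1 were thus called down by edgeR in these EBs, while Flt1 was not (log2 fold change -0.52, adjusted p = 0.18). Whether the genes differed from each other was not tested. The median log2 fold change of the 10 genes was -0.76, and 0.02 over all genes tested.

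**Figure D2:**
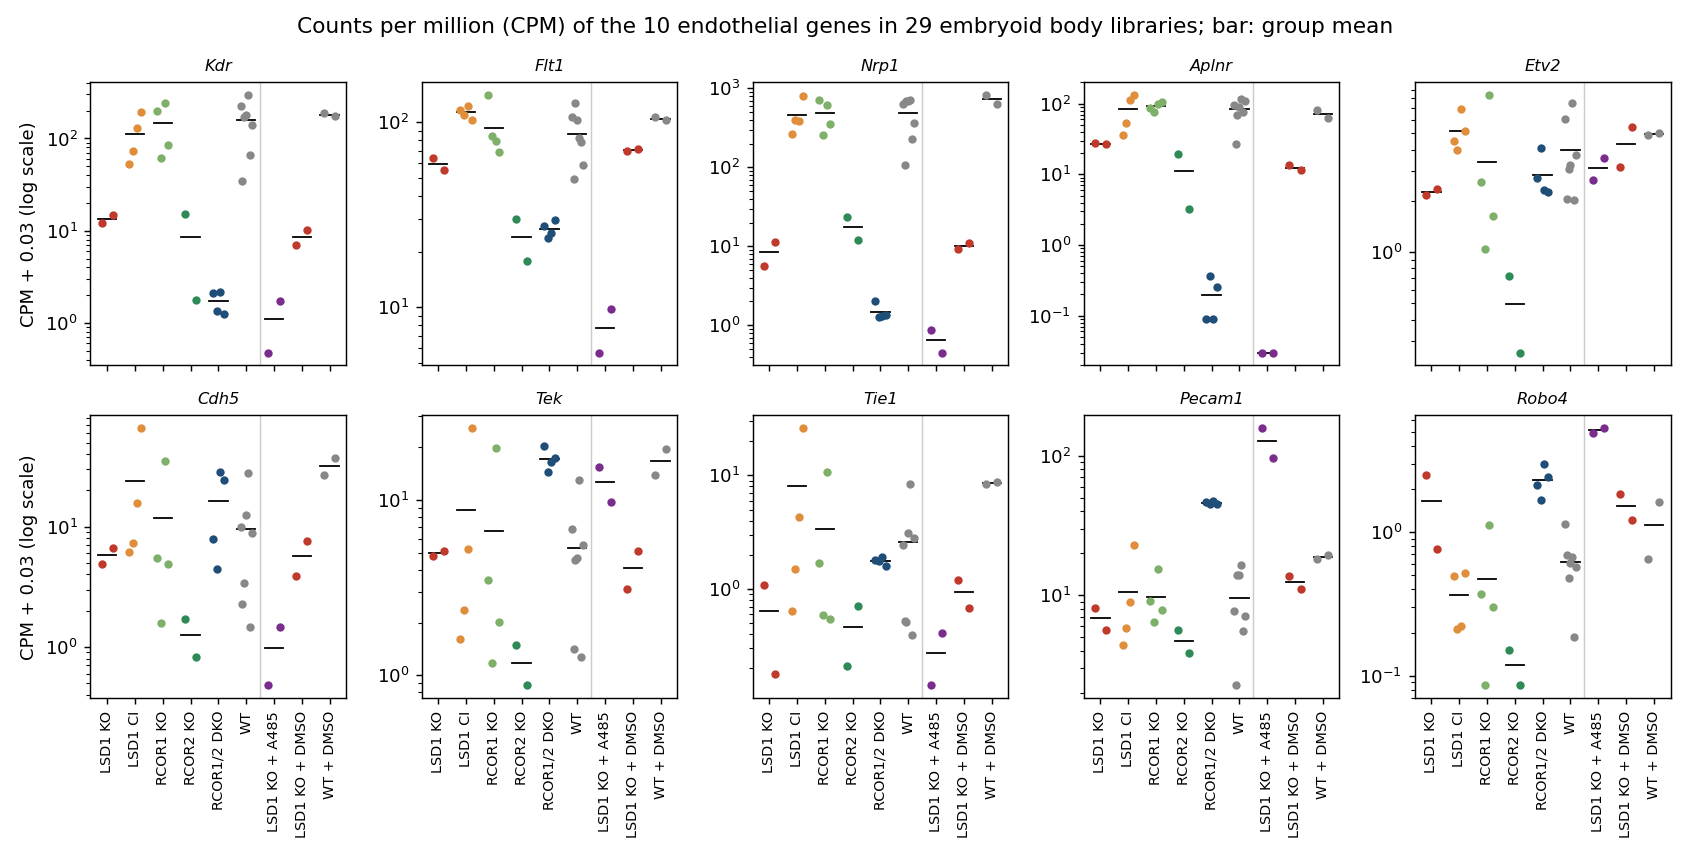
CPM plus 0.03 on a log axis for the 10 genes in 29 EB libraries, one panel per gene, each point a library and each bar a group mean, with mutant and treated groups left of their WT or DMSO group. Nrp1 sits between 1.23 and 1.98 CPM in RCOR1/2 DKO EBs and above 100 CPM in all WT EBs, while Pecam1 in RCOR1/2 DKO EBs lies above every WT library.

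Around them, 2 of 14 ligands rose in LSD1 KO EBs (Apln, the apelin gene, at a log2 fold change of 2.42, and Sema3e at 1.98) and 1 fell, Vegfa at -2.87, which encodes the main ligand of VEGFR2. Of 13 other endothelial factors 2 fell, Sox17 at -5.24 and Hhex at -1.85, and 0 rose. Of 18 other surface genes 2 rose, Eng at 2.80 and Plvap at 1.92, and 2 fell, Vwf (von Willebrand factor) at -3.71 and Cd93, at 0.0484 CPM in LSD1 KO EBs against 4.00 CPM in WT EBs on average. Sox17 also marks endoderm, and the sum of 6 endoderm markers was 66.1 to 68.8 CPM in LSD1 KO EBs, with Afp at 0, against 299 to 568 CPM in WT EBs. The sum of 7 mesoderm markers was 492 to 623 CPM in LSD1 KO EBs, against 120 to 825 CPM in WT EBs, but its genes went both ways: 2 of 7 rose, T at a log2 fold change of 3.04 and Mixl1 at 3.94, and 3 fell, Hand1 at -5.60, Hand2 at -7.56 and Pdgfra at -2.63. Of 7 cardiac markers 4 fell and 1 rose, and of 7 neural markers 5 rose, their sum being 381 to 386 CPM in LSD1 KO EBs, against 46.4 to 206 CPM in WT EBs. Blood markers summed to 11.5 to 12.6 CPM in LSD1 KO EBs, against 16.1 to 51.7 CPM in WT EBs, and pluripotency markers to 559 to 628 CPM, against 19.4 to 198 CPM. Their part in the levels of the 10 genes was not tested.

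In LSD1 CI EBs no gene of the 10 was called by edgeR, where 2.54% of all genes were, and 0 of 10 had an unadjusted p under 0.05; DESeq2 called 0 as well. Nrp1 was at 262, 403, 381 and 801 CPM in LSD1 CI EBs and Kdr at 53.3, 73.9, 129 and 195 CPM, in both cases overlapping the WT EBs. The log2 fold change was -0.01 (SE 0.43) for Nrp1 and -0.41 (SE 0.54) for Kdr. The largest values were those of Tie1 (1.76, SE 0.95, adjusted p = 0.228) and Cdh5 (1.43, SE 0.82, adjusted p = 0.26), both raised by library 4. Among the ligands, other factors and other surface genes, Eng alone was called, with a log2 fold change of 1.84. Of the markers of other cell types the neural gene Tubb3 rose (1.17) and the endoderm gene Cldn6 fell (-1.63).

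A direct test set LSD1 KO EBs against LSD1 CI EBs. Nrp1 was 54.0-fold lower in LSD1 KO EBs by the means (log2 fold change -5.82, SE 0.83, edgeR adjusted p = 4.39e-05), and Kdr 8.38-fold lower (log2 fold change -3.13, SE 0.87, adjusted p = 0.00981), with 11.4% of genes called and 3.999% called down. Each LSD1 KO library lay below each LSD1 CI library for both genes. The Kdr call sat at the threshold and was lost in 5 of 6 sets that left out 1 library: without LSD1 KO library 1 or 2 its adjusted p was 0.0838 or 0.0751, and without LSD1 CI library 2, 3 or 4 it was 0.0115, 0.0165 or 0.0247. Flt1 was at 64.3 and 55.3 CPM in LSD1 KO EBs, against 103 to 123 CPM in LSD1 CI EBs, with an adjusted p of 0.0259.

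RCOR1 KO EBs were the closest to WT EBs. edgeR called 0 of the 10 genes and 0.00558% of all genes (1 gene); 0 of the 10 had an unadjusted p under 0.05, and DESeq2 called 0. Every log2 fold change among the 10 lay between -0.45 (Robo4) and 0.35 (Tie1). Kdr was at 196, 60.9, 241 and 84.5 CPM in RCOR1 KO EBs and Nrp1 at 717, 254, 620 and 349 CPM, inside the WT ranges. The precision was modest: the SE was 0.53 for Kdr and 0.97 for Tie1 on the log2 scale.

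EBs labelled RCOR2 KO had lower levels of the receptors of early mesoderm and of Etv2. Kdr was at 15.1 and 1.75 CPM in RCOR2 KO EBs, against 34.9 to 294 CPM in WT EBs, 18.8-fold lower. Nrp1 was at 23.1 and 12.0 CPM against 106 to 721 CPM, and Aplnr at 19.2 and 3.22 CPM against 26.9 to 115 CPM. Flt1, which had stayed within the WT range in LSD1 KO EBs, was at 30.0 and 17.6 CPM against 49.1 to 127 CPM, and Etv2 at 0.696 and 0.226 CPM against 1.98 to 7.51 CPM. For all 5 genes both RCOR2 KO libraries lay under every WT library, though the share of all genes that did so was not counted.

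edgeR called these 5 genes down, with 5.28% of all genes called and 3.10% called down. The log2 fold change was -4.86 for Nrp1 (SE 0.77, adjusted p = 0.000282), -1.92 for Flt1 (SE 0.33, adjusted p = 0.000522) and -4.30 for Kdr (SE 0.92, adjusted p = 0.00343). Aplnr had -2.96 (SE 0.64, adjusted p = 0.0036) and Etv2 -3.14 (SE 0.75, adjusted p = 0.00709). Without RCOR2 KO library 2, the lower of the pair for each of these 5 genes, every call was lost, with adjusted p-values of 0.0229 (Nrp1), 0.0409 (Flt1), 0.0799 (Kdr), 0.0876 (Aplnr) and 0.141 (Etv2). The Etv2 call was also lost without RCOR2 KO library 1 (0.0269), WT library 1 (0.0118) or WT library 5 (0.01). Cdh5 at 1.67 and 0.790 CPM, Tek at 1.45 and 0.847 CPM and Tie1 at 0.182 and 0.677 CPM in RCOR2 KO EBs did not pass, their adjusted p-values lying at 0.14 or above. The median over the 10 genes was -2.86, and -0.02 over all genes.

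Vegfa (-2.23), Apela (-3.30) and Angpt2 (-5.47) fell among the 14 ligands in RCOR2 KO EBs and none rose; Apela encodes the second ligand of the apelin receptor and Angpt2 a ligand of TIE2. Hhex (-1.99), Sox17 (-3.93) and Mef2c (-5.43) fell among the 13 factors and none rose. Mesoderm markers summed to 15.8 to 65.4 CPM in RCOR2 KO EBs, against 120 to 825 CPM in WT EBs, and neural markers to 331 to 350 CPM, against 46.4 to 206 CPM. Endoderm markers summed to 87.0 to 104.9 CPM, against 299 to 568 CPM, and pluripotency markers to 237 to 336 CPM, against 19.4 to 198 CPM. The part of that make-up in the lower receptor levels was not tested.

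In RCOR1/2 DKO EBs Aplnr, Nrp1 and Kdr all but vanished, Flt1 was lower than WT and Pecam1 and Robo4 were above WT. The others of the 10 genes, Tek, Cdh5, Tie1 and Etv2, were not called. Aplnr was at 0.0599, 0.332, 0.0585 and 0.227 CPM in RCOR1/2 DKO EBs, against 26.9 to 115 CPM in WT EBs, 493-fold lower. Nrp1 was at 1.98, 1.23, 1.29 and 1.33 CPM against 106 to 721 CPM, 337-fold lower, and Kdr at 2.10, 1.33, 2.17 and 1.22 CPM against 34.9 to 294 CPM, 93.3-fold lower. Flt1 was again the VEGF receptor that moved least, at 27.4, 23.8, 25.3 and 29.6 CPM against 49.1 to 127 CPM, 3.26-fold lower. None of the 4 RCOR1/2 DKO libraries overlapped WT for these genes.

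Pecam1 was at 46.2, 45.1, 47.0 and 45.3 CPM in RCOR1/2 DKO EBs, against 2.24 to 16.4 CPM in WT EBs, 4.81-fold higher. Robo4 was at 2.10, 1.66, 2.96 and 2.41 CPM against 0.158 to 1.11 CPM, 3.84-fold higher. Both ranges lay wholly above WT. Tek, at 20.3, 14.5, 16.4 and 17.3 CPM against 1.24 to 12.9 CPM, did not overlap WT either, but its log2 fold change of 1.69 missed the threshold (adjusted p = 0.0523). Cdh5 was at 7.91, 4.38, 28.2 and 24.6 CPM, with libraries 3 and 4 above libraries 1 and 2, and Tie1 at 1.77, 1.73, 1.87 and 1.56 CPM, both overlapping WT, as did Etv2 at 2.70, 4.05, 2.28 and 2.21 CPM.

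edgeR called 6 of the 10 genes in RCOR1/2 DKO EBs, 4 down and 2 up, with 26.4% of all genes called, 12.3% down and 14.1% up. The log2 fold change was -8.96 for Aplnr (SE 0.73, adjusted p = 3.01e-09), -8.41 for Nrp1 (SE 0.69, adjusted p = 3.41e-09) and -6.55 for Kdr (SE 0.77, adjusted p = 5.1e-07). Flt1 had -1.72 (SE 0.24, adjusted p = 3.96e-06), Pecam1 2.25 (SE 0.43, adjusted p = 0.000159) and Robo4 1.92 (SE 0.53, adjusted p = 0.00358). The Robo4 call was lost without RCOR1/2 DKO library 3 (log2 fold change 1.78, adjusted p = 0.0138). All mutant comparisons above share the 7 WT EB libraries.

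Of the 14 ligands 9 fell in RCOR1/2 DKO EBs, among them Vegfa (-3.83), Slit2 (-3.07) and Angpt2 (-4.16), and 2 rose, with Vegfd at 1.35. Of the 13 factors 7 fell, with Sox17 at -6.38, Hhex at -1.85, Mef2c at -4.46 and Sox7 at -4.33, and 0 rose. The 18 surface genes divided, 5 up with Eng at 2.95 and Plvap at 2.16, and 4 down with Nrp2, the other neuropilin, at -2.37 and Cd93 at 0 CPM in RCOR1/2 DKO EBs against 4.00 CPM in WT EBs. Pluripotency markers summed to 1153 to 1259 CPM in RCOR1/2 DKO EBs, against 19.4 to 198 CPM in WT EBs, mesoderm markers to 10.3 to 15.4 CPM, against 120 to 825 CPM, and endoderm markers to 61.9 to 78.3 CPM with Ttr at 0, against 299 to 568 CPM. In RCOR1/2 DKO ESCs Pecam1, Tek and Robo4 averaged 158, 34.7 and 7.97 CPM. Of these, Pecam1 alone was called lower in RCOR1/2 DKO EBs than in those ESCs, while Tek (adjusted p = 0.115) and Robo4 (adjusted p = 0.0325) were not called. Both uncalled genes still had lower CPM in the EBs without overlap. Tek was at 14.5 to 20.3 CPM in EBs against 32.1 to 39.2 CPM in ESCs, and Robo4 at 1.66 to 2.96 CPM against 6.97 to 8.59 CPM. The part of undifferentiated cells in the 3 higher levels was not tested.

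Against the EBs labelled RCOR2 KO, RCOR1/2 DKO EBs had higher Pecam1 and Robo4 and lower Aplnr and Nrp1, 4 calls with 11.9% of all genes called, 6.03% up and 5.87% down. Pecam1 was at 45.1 to 47.0 CPM in RCOR1/2 DKO EBs, against 5.60 and 3.81 CPM in RCOR2 KO EBs (log2 fold change 3.32, SE 0.73, edgeR adjusted p = 0.00164). Robo4 was at 1.66 to 2.96 CPM against 0.121 and 0.0564 CPM (4.67, SE 1.01, adjusted p = 0.00128), and the group with both genes deleted again lay above. Aplnr (-6.00, SE 0.78, adjusted p = 9.35e-06) and Nrp1 (-3.54, SE 0.67, adjusted p = 0.000404) went the other way. Etv2 (2.65, adjusted p = 0.0108) and Kdr (-2.25, adjusted p = 0.0383) missed the threshold. Leaving out RCOR2 KO library 1 or 2 took the call from Pecam1 (adjusted p = 0.02 and 0.0411) and Robo4 (0.0154 and 0.0354), and leaving out library 1 took that of Nrp1 (0.0106).

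The vehicle-treated EBs gave a second set of LSD1 KO and WT libraries, 2 of each. Nrp1 was at 9.11 and 11.1 CPM in LSD1 KO EBs with DMSO, against 819 and 642 CPM in WT EBs with DMSO, 72.2-fold lower. Kdr was at 7.0 and 10.1 CPM against 189 and 174 CPM, 21.2-fold lower, and Aplnr at 13.5 and 11.4 CPM against 80.7 and 61.9 CPM, 5.73-fold lower. Here the genes of maturing endothelium were lower than in WT too. Tie1 was at 1.16 and 0.646 CPM in LSD1 KO EBs with DMSO, against 8.32 and 8.72 CPM, 9.44-fold lower, Cdh5 at 3.82 and 7.58 CPM against 26.6 and 37.6 CPM, 5.63-fold lower, and Tek at 3.07 and 5.10 CPM against 13.8 and 19.4 CPM, 4.07-fold lower. No LSD1 KO library overlapped a WT library in these 6 genes, though ranges of 2 libraries can part by chance. Flt1 at 69.8 and 71.5 CPM against 107 and 103 CPM and Pecam1 at 13.7 and 11.1 CPM against 18.2 and 19.5 CPM did not overlap either, yet stayed under the fold limit.

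edgeR called those 6 genes down and none up, with 18.8% of 16468 genes called and 7.13% called down. The log2 fold change was -6.26 for Nrp1 (SE 0.22, adjusted p = 4.76e-09), -4.49 for Kdr (SE 0.38, adjusted p = 9.5e-05), -2.60 for Aplnr (SE 0.18, adjusted p = 1.08e-06) and -3.31 for Tie1 (SE 0.41, adjusted p = 5.36e-05). Tek had -2.11 (SE 0.30, adjusted p = 0.000158) and Cdh5 -2.58 (SE 0.43, adjusted p = 0.0016); without the WT DMSO library 2 the Cdh5 call was lost (-2.32, adjusted p = 0.0154). The WT EBs with DMSO carried 26.6 and 37.6 CPM of Cdh5, and the untreated WT EBs at most 28.1 CPM. Tek was at 13.8 and 19.4 CPM in WT EBs with DMSO and Tie1 at 8.32 and 8.72 CPM, against at most 12.9 and 8.40 CPM in untreated WT EBs. Untreated LSD1 KO EBs had levels near those with DMSO: 4.88 and 6.59 CPM of Cdh5, 4.74 and 5.11 CPM of Tek and 1.06 and 0.147 CPM of Tie1. The difference between the 2 sets was not tested. Of the 13 other endothelial factors 8 fell, among them Sox17 (-4.49), Mef2c (-2.80), Tal1 (-1.93) and Erg, at 0.0215 CPM in LSD1 KO EBs with DMSO against 6.85 CPM in WT EBs with DMSO, and 0 rose, and all 6 blood markers tested fell. Blood markers summed to 14.2 to 14.3 CPM in LSD1 KO EBs with DMSO, where Hbb-y was at 0, against 56.8 to 60.1 CPM in WT EBs with DMSO, where Ptprc was at 0. Mesoderm markers summed to 333 to 414 CPM in LSD1 KO EBs with DMSO, against 469 to 686 CPM in WT EBs with DMSO, with 2 of 7 up and 3 down as in the untreated set. Endoderm markers summed to 50.8 to 59.2 CPM, against 442 to 463 CPM, neural markers to 331 to 346 CPM, against 45.4 to 64.5 CPM, and pluripotency markers to 550 to 583 CPM, against 45.5 to 51.0 CPM. None of these sums overlapped, and their part in the lower endothelial levels was not tested.

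With A485, LSD1 KO EBs had still less of the receptors of early mesoderm and more Pecam1, Tek and Robo4 than with DMSO. Aplnr had 0 counts in both LSD1 KO EB libraries with A485, against 13.5 and 11.4 CPM with DMSO, at least 355-fold lower when 3 counts over the group are taken as the floor. Nrp1 was at 0.839 and 0.421 CPM with A485, against 9.11 and 11.1 CPM with DMSO, 16.1-fold lower, Flt1 at 5.65 and 9.77 CPM against 69.8 and 71.5 CPM, 9.16-fold lower, and Kdr at 0.448 and 1.72 CPM against 7.0 and 10.1 CPM, 7.88-fold lower. Cdh5 was at 0.448 and 1.44 CPM against 3.82 and 7.58 CPM. For these 5 genes both A485 libraries lay under both DMSO libraries. Ranges of 2 libraries can part by chance, and the share of all genes that did so was not counted. The opposite held for Pecam1, at 157 and 95.9 CPM with A485 against 13.7 and 11.1 CPM with DMSO, 10.2-fold higher, for Tek, at 15.4 and 9.67 CPM against 3.07 and 5.10 CPM, and for Robo4, at 4.90 and 5.29 CPM against 1.80 and 1.20 CPM.

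edgeR called 8 of the 10 genes, 5 down and 3 up, with 13.8% of all genes called, 9.54% down and 4.26% up. The log2 fold change was -3.97 for Nrp1 (SE 0.26, adjusted p = 6.29e-07), -3.09 for Flt1 (SE 0.21, adjusted p = 6.99e-07), -2.79 for Kdr (SE 0.44, adjusted p = 0.00278) and 3.44 for Pecam1 (SE 0.22, adjusted p = 5.32e-07), and the adjusted p for Aplnr was 1.18e-07. Tek (1.71, SE 0.30, adjusted p = 0.000968), Robo4 (1.85, SE 0.42, adjusted p = 0.00522) and Cdh5 (-2.43, adjusted p = 0.00616) each lost the call without some library: Tek without DMSO library 1 (0.0133), Robo4 without DMSO library 1 (0.0172) or 2 (0.0558) or A485 library 2 (0.015), and Cdh5 without A485 library 1 (0.04) or DMSO library 2 (0.0139). Tie1 (-1.69, adjusted p = 0.0217) and Etv2 (-0.37, adjusted p = 0.405) were not called. The median over the 10 genes was -2.06, also with Aplnr at its bound, and 0.03 over all genes. Ets1 (-2.80), Fli1 (-4.33), Gata2 (-3.07) and Mef2c (-4.01) were among 5 of 13 factors that fell, and 0 rose. Pluripotency markers summed to 1316 to 1335 CPM with A485 against 550 to 583 CPM with DMSO, and mesoderm markers to 12.8 to 15.1 CPM against 333 to 414 CPM, and their part in these levels was not tested.

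The step between ESCs and EBs was also read within each genotype. In LSD1 KO cells 5 of the 10 genes rose in EBs and 2 fell, with 36.9% of genes called, 23.4% up and 13.5% down: Kdr rose by a log2 fold change of 2.78, Nrp1 3.83, Flt1 5.50, Cdh5 6.43 and Aplnr 9.43, while Pecam1 (-4.99) and Tek (-2.45) fell. The Tek call was lost without LSD1 KO EB library 1 (adjusted p = 0.061) or 2 (0.0481). With a term for the unplaced-contig split of the ESC libraries, described below, 4 of the 7 calls stood. Those of Cdh5 (adjusted p = 0.223), Tek (0.0205) and Nrp1 (0.0224) were lost. In this comparison the median over all genes was 0.17 on the log2 scale. LSD1 CI and RCOR1 KO cells each had 7 of the 10 up and Pecam1 down, with 33.7% of genes called in both, 18.9% up and 14.8% down in LSD1 CI cells and 20.4% up and 13.3% down in RCOR1 KO cells. The rise of Tie1 in RCOR1 KO EBs was lost without EB library 3 (adjusted p = 0.101) or ESC library 4 (0.012), and that of Etv2 without EB library 3 (0.0358). In LSD1 CI cells Cdh5 and Aplnr had no count in ESCs, so that they were at least 1080-fold and 3809-fold higher in EBs. RCOR2 KO cells had 5 up and 2 down (31.7% of genes called, 18.2% up and 13.5% down), with Aplnr at least 634-fold higher than its 0 counts in ESCs. The Kdr rise there rested on RCOR2 KO EB library 1, without which it was -0.52 on the log2 scale (adjusted p = 0.626). That call was also lost without RCOR2 KO ESC library 2 (0.0254), 3 (0.0132) or 4 (0.0191) and in DESeq2 (0.0109). Cdh5 lost its call without ESC library 1 (0.0124), 2 (0.0113) or 3 (0.0149) or EB library 1 (0.0655), and Tek without EB library 2 (0.0217), so that each set that left out 1 library held 5 or 6 of the 7 calls.

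RCOR1/2 DKO cells had 3 calls, with 20.6% of genes called, 12.7% up and 7.95% down. Cdh5 (log2 fold change 7.17) and Flt1 (4.04) rose in EBs and Pecam1 (-1.89) fell. Kdr had 0.10 (SE 0.56) and Nrp1 0.22 (SE 0.53), and their EB and ESC libraries overlapped. Aplnr had 22 counts in 4 EB libraries and 2 counts in 4 ESC libraries, a ratio of 12.9 (95% counting interval 3.16 to 112.8), and was not called (adjusted p = 0.0776). Cdh5 and Flt1 therefore rose in RCOR1/2 DKO EBs while Kdr, Nrp1 and Aplnr passed no test.

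Whether a mutant's difference from WT depended on the culture was tested as an interaction. Negative values mean that the mutant minus WT difference was lower in EBs than in ESCs. For LSD1 KO, Nrp1 (-7.82, SE 0.83, adjusted p = 1.65e-10), Kdr (-4.25, SE 0.74, adjusted p = 7.41e-06) and Pecam1 (-1.49, SE 0.47, adjusted p = 0.00912) were called by edgeR, with 18.9% of genes called and 7.82% called lower. The Pecam1 call was lost in most sets that left out 1 EB or ESC library, with adjusted p-values between 0.0103 and 0.122, and with the unplaced-contig term (0.0317). For RCOR2 KO, Kdr (-5.26, SE 0.79, adjusted p = 4.18e-06), Flt1 (-2.12, SE 0.51, adjusted p = 0.00229), Etv2 (-3.14, SE 0.84, adjusted p = 0.00566) and Nrp1 (-4.89, SE 1.33, adjusted p = 0.00655) were called, with 6.79% of genes called and 3.56% called lower. Of these, Kdr alone passed in every set that left out 1 EB or RCOR2 KO ESC library. Nrp1 was lost without RCOR2 KO ESC library 1 (0.0133), 3 (0.0145) or 4 (0.15) or EB library 2 (0.0243), and Flt1 without ESC library 1 (0.0133) or EB library 2 (0.0564). Etv2 was lost without WT EB library 5 (0.0108), RCOR2 KO ESC library 3 (0.0112) or 4 (0.0159), or RCOR2 KO EB library 1 (0.0158) or 2 (0.108). For RCOR1/2 DKO there were 5 calls, with 20.5% of genes called, 10.8% lower and 9.68% higher. Nrp1 (-11.42, SE 0.75, adjusted p = 1.59e-17), Kdr (-6.92, SE 0.70, adjusted p = 9.65e-12), Flt1 (-2.67, SE 0.43, adjusted p = 9.92e-07) and Robo4 (-3.55, SE 0.93, adjusted p = 0.00151) were lower in this sense and Pecam1 (1.61, SE 0.40, adjusted p = 0.000857) higher.

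For LSD1 CI edgeR called 0 of 10 (3.25% of genes), with 2 at an unadjusted p under 0.05, and for RCOR1 KO 0 of 10 (0% of genes), with 1 at that level. DESeq2 called 0 in both. A gene such as Aplnr, with few counts in ESCs, could hardly pass this test: its RCOR1/2 DKO interaction was -7.22 with an SE of 3.86. In the heat map of fold changes, a gene with 0 counts in a group, such as Robo4 in MLL4 KO ESCs, has a fitted value that depends on the prior count.

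**Figure D3:**
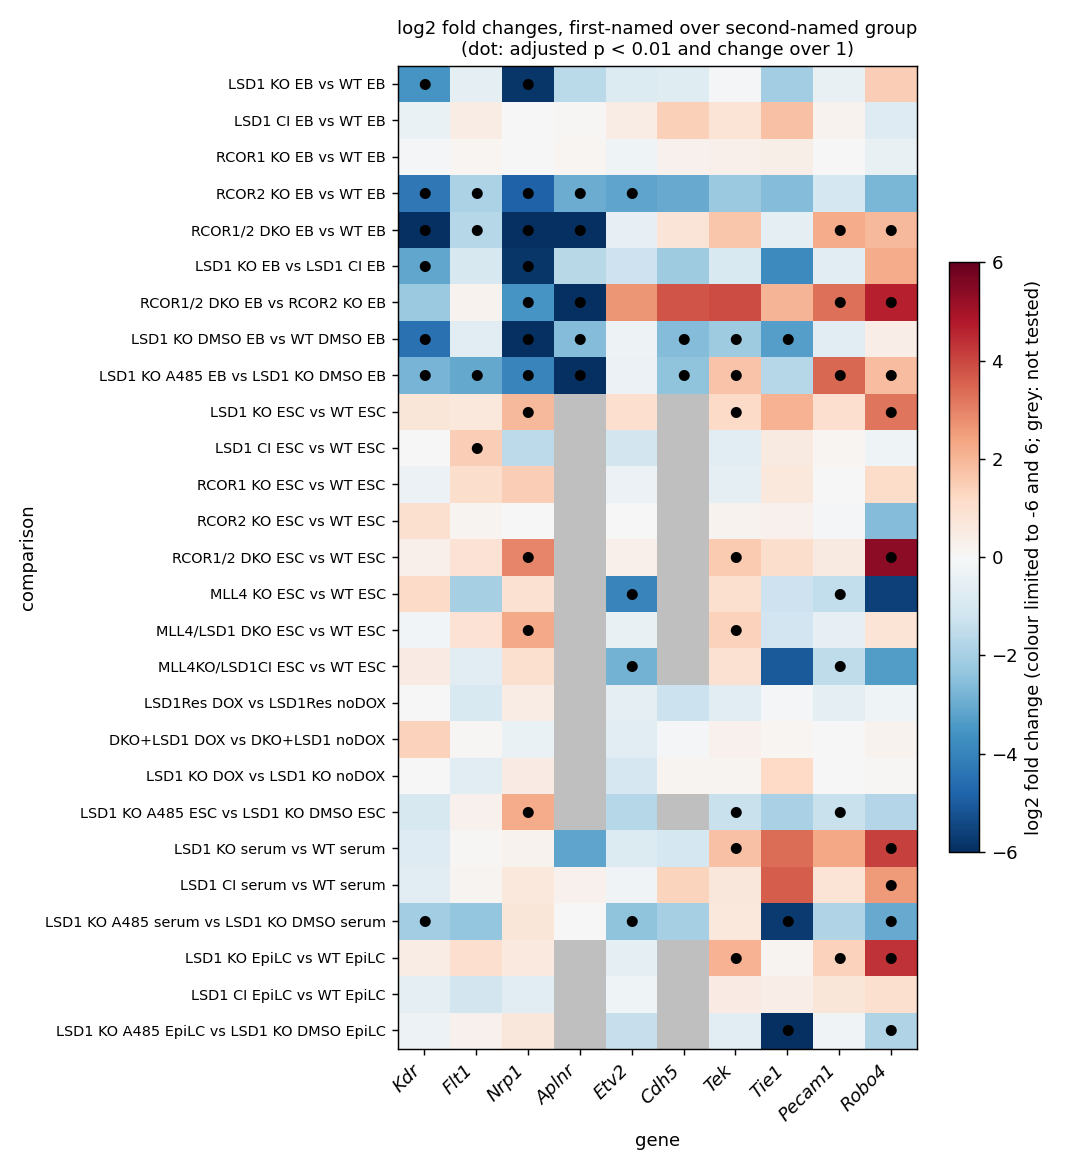
Heat map of log2 fold changes of the 10 genes (columns) in 27 comparisons (rows), the group named first over the one named second, with colour limited to -6 and 6, dots at called genes and grey where a gene was not tested. Nrp1 and Kdr are lower in LSD1 KO, RCOR2 KO and RCOR1/2 DKO EBs, and the rows of LSD1 CI and RCOR1 KO EBs hold no dot.

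In naive ESCs 8 of the 10 genes passed the filter on low counts, and Cdh5 and Aplnr were not tested. LSD1 KO ESCs had higher Robo4, Tek and Nrp1, with 21.0% of genes called and 10.2% called up. Robo4 ran between 0.624 and 2.51 CPM in the 6 LSD1 KO libraries (median 1.58), against 0 to 0.500 CPM in the 11 WT libraries (median 0.111), 9.50-fold higher. Tek ran between 20.2 and 30.9 CPM in LSD1 KO ESCs (median 22.9), against 6.45 to 16.4 CPM in WT ESCs (median 9.85), 2.19-fold higher. Neither gene's ranges overlapped, whereas Nrp1, at 0.176 to 0.992 CPM in LSD1 KO ESCs (median 0.444) and 0 to 0.435 CPM in WT ESCs, did overlap.

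The edgeR log2 fold change in LSD1 KO ESCs was 3.22 for Robo4 (SE 0.59, adjusted p = 1.42e-05), 1.15 for Tek (SE 0.19, adjusted p = 2.15e-06) and 1.95 for Nrp1 (SE 0.51, adjusted p = 0.00115). All 6 LSD1 KO libraries and WT libraries 1 to 3, unlike the other ESC libraries, had 0 counts on genes of unplaced contigs. The labels do not say what set these libraries apart, and the division is called the unplaced-contig split here. With a term for that split of the libraries Tek stood at 1.29 (adjusted p = 0.000386) and Robo4 at 6.47 (adjusted p = 1.21e-05), but the Nrp1 call was lost (1.91, adjusted p = 0.0432). The size of the Robo4 value is uncertain, since WT libraries 1 to 3 held only 2, 0 and 0 counts of Robo4. Pecam1 ran between 176 and 201 CPM in LSD1 KO ESCs (median 195), above the whole WT range of 68.3 to 123 CPM (median 92.3), and its log2 fold change of 0.99 lay just under the fold limit (adjusted p = 1.82e-10). Nrp1 was thus higher than WT in LSD1 KO ESCs and lower in LSD1 KO EBs, though its ESC level stayed under 1 CPM in every library.

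In RCOR1/2 DKO ESCs Robo4, Tek and Nrp1 were called up, with 17.7% of genes called, 11.3% up, and the same 11 WT libraries as the control. Robo4 was at 6.97 to 8.59 CPM in the 4 RCOR1/2 DKO libraries, against 0 to 0.500 CPM in WT ESCs (log2 fold change 5.39, SE 0.64, edgeR adjusted p = 6.79e-09). Tek was at 32.1 to 39.2 CPM, against 6.45 to 16.4 CPM (1.55, adjusted p = 9.44e-08), and Nrp1 at 0.688 to 1.92 CPM, against 0 to 0.435 CPM (2.94, adjusted p = 2.19e-05). No RCOR1/2 DKO library overlapped WT in these genes. LSD1 CI ESCs had 1 call, Flt1 at 1.17 to 3.05 CPM against 0.309 to 1.76 CPM in WT ESCs (1.48, SE 0.35, adjusted p = 0.00332, with 3.24% of genes called and 2.08% up). That call was lost without LSD1 CI library 1 (0.03) or 3 (0.0329) and with the unplaced-contig term (0.0129). RCOR1 KO and RCOR2 KO ESCs had 0 of 8 called by edgeR, with 0.142% and 3.85% of genes called, 3 and 2 genes at an unadjusted p under 0.05, and 0 calls by DESeq2.

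The MLL4 mutants moved other genes of the 10. Pecam1 was at 27.0 and 46.3 CPM in MLL4 KO ESCs and at 27.3 to 40.8 CPM in MLL4 KO/LSD1 CI ESCs, against 68.3 to 123 CPM in WT ESCs, with log2 fold changes of -1.50 (SE 0.19, edgeR adjusted p = 4.94e-08; 10.7% of genes called, 6.85% down) and -1.54 (SE 0.14, adjusted p = 6.81e-12; 14.1% of genes called, 7.80% down). In MLL4/LSD1 DKO ESCs Pecam1 was at 62.8 to 82.9 CPM, overlapping WT, and was not called (-0.47). Etv2 had 2 counts over both MLL4 KO libraries, against 328 counts in the 11 WT libraries, a ratio of 0.0618 (95% counting interval 0.00745 to 0.225), and was called (adjusted p = 0.00317), a call lost without MLL4 KO library 1 (0.0127) or 2 (0.103). In MLL4 KO/LSD1 CI ESCs Etv2 was at 0 to 0.231 CPM, against 0.426 to 1.43 CPM in WT ESCs (-2.83, adjusted p = 0.000754). Tek (1.36, adjusted p = 2.29e-06) and Nrp1 (2.29, adjusted p = 0.00138) were called up in MLL4/LSD1 DKO ESCs, with 14.2% of genes called and 8.59% called up. Robo4, at 0 to 1.06 CPM in MLL4/LSD1 DKO ESCs and not called there (0.81, adjusted p = 0.419), had 0 counts in MLL4 KO ESCs.

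Adding DOX called none of the 9 genes tested in any of the 3 lines, with 2.37% of all genes called in LSD1Res, 0.332% in DKO+LSD1 and 0.0178% in LSD1 KO ESCs; 2, 1 and 0 of the 9 had an unadjusted p under 0.05, and DESeq2 called 0 in each. Kdm1a itself was at 980 to 2253 CPM in LSD1Res ESCs with DOX, against 10.8 to 38.1 CPM without. Pecam1 was at 50.9, 57.4, 83.2 and 89.7 CPM in LSD1Res ESCs with DOX, against 92.7, 100.5, 112.8 and 124 CPM without, lower in 4 of 4 pairs but under the fold limit (log2 fold change -0.58, SE 0.17, adjusted p = 0.0282). Tek was lower with DOX in 4 of 4 pairs too, at 16.0, 16.7, 3.11 and 3.25 CPM with DOX against 22.0, 25.7, 6.75 and 7.84 CPM without, with an adjusted p of 0.497. Tek differed more between libraries 1 and 2 and libraries 3 and 4 than between DOX states. Both adjusted p-values come from the edgeR fit without a block for the pairs, so that of Tek measures this split too. In DKO+LSD1 ESCs Kdr was higher with DOX in 4 of 4 pairs. It was at 1.42, 1.68, 3.99 and 3.45 CPM with DOX, against 1.02, 0.823, 1.38 and 0.844 CPM without. In the same unpaired edgeR fit its log2 fold change was 1.37 (adjusted p = 0.118).

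In naive LSD1 KO ESCs Pecam1 and Tek were lower with A485, the reverse of the direction in LSD1 KO EBs, with 17.6% of genes called, 11.7% down and 5.94% up. Pecam1 was at 60.6 and 65.2 CPM with A485, against 152 and 148 CPM with DMSO (log2 fold change -1.31, edgeR adjusted p = 5.99e-12), and Tek at 13.9 and 17.2 CPM, against 40.5 and 35.9 CPM (-1.35, adjusted p = 7.14e-09). Nrp1 was at 1.20 and 1.13 CPM with A485, against 0.247 and 0.231 CPM with DMSO (2.21, adjusted p = 0.00153), and lost its call without A485 library 1 (0.0106). The difference between the cultures was not tested, and the study gave a lower dose to EBs than to ESCs.

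After 4 days in serum, Robo4 and Tek were higher in LSD1 KO cells than in WT cells, 2 of 10 with 9.55% of genes called and 6.22% called up. Robo4 was at 6.57 and 4.32 CPM in LSD1 KO cells, against 0.408 and 0.231 CPM in WT cells (log2 fold change 4.09, SE 0.41, edgeR adjusted p = 2.72e-05), and Tek at 6.32 and 5.71 CPM, against 2.01 and 1.52 CPM (1.76, SE 0.29, adjusted p = 0.000794). Robo4 also rose in LSD1 CI cells, to 1.92 and 1.74 CPM (2.55, SE 0.41, adjusted p = 0.00167; 2.99% of genes called, 2.41% up), a call lost without WT library 2 (0.0157). Tie1 was far above WT in both mutants, at 11.5 and 10.3 CPM in LSD1 KO and 15.4 and 10.5 CPM in LSD1 CI cells against 1.81 and 0.323 CPM in WT cells, but with adjusted p-values of 0.0133 and 0.0184 it passed in neither. Flt1 was at 26.4 and 46.2 CPM in LSD1 KO cells, against 27.8 and 40.9 CPM in WT cells, so the ranges overlapped.

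Tie1 and Robo4 were lower with A485 in the serum cultures of LSD1 KO cells, and edgeR called 4 of 10 genes down with 12.5% of genes called and 9.002% called down. Tie1 was at 0.0924 and 0.355 CPM with A485, against 11.5 and 10.3 CPM with DMSO (log2 fold change -5.75, SE 0.87, adjusted p = 0.00267), and Robo4 at 0.647 and 0.770 CPM, against 6.57 and 4.32 CPM (-3.02, SE 0.37, adjusted p = 6.93e-05). Etv2 was at 0.324 and 0.444 CPM, against 1.78 and 2.11 CPM (-2.42, adjusted p = 0.00153), and Kdr fell by 2.10 on the log2 scale (adjusted p = 0.00553). Both A485 libraries lay below both DMSO libraries in these 4 genes, which can happen by chance with so few libraries. Calls in this comparison were fragile: leaving out any 1 of the 4 libraries took the call from Tie1 (adjusted p 0.0164 to 0.0278) and Kdr (0.013 to 0.0455), and leaving out A485 library 1 (0.0229) or 2 (0.0111) took that of Etv2.

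In EpiLCs the LSD1 KO cells had higher Robo4, Tek and Pecam1, 3 of 8 genes tested with 9.49% of all genes called and 6.82% called up. Robo4 was at 12.6 and 12.4 CPM in LSD1 KO EpiLCs, against 0.701 and 0.494 CPM in WT EpiLCs (log2 fold change 4.36, SE 0.26, edgeR adjusted p = 1.86e-08). Tek was at 11.9 and 12.2 CPM, against 3.32 and 2.27 CPM (2.08, SE 0.25, adjusted p = 1.93e-05), and Pecam1 at 52.5 and 57.2 CPM, against 22.7 and 19.0 CPM (1.36, SE 0.12, adjusted p = 1.38e-06). The groups did not overlap in any of the 3, which can happen by chance with so few libraries. LSD1 CI EpiLCs had 0 of 8 called (2.15% of genes), with 3 at an unadjusted p under 0.05 and 1 called by DESeq2; Robo4 was at 1.05 and 1.20 CPM there. With A485, LSD1 KO EpiLCs had Robo4 at 3.94 and 3.76 CPM, against 12.6 and 12.4 CPM with DMSO (-1.81, SE 0.21, adjusted p = 3.64e-06; 17.6% of genes called, 10.2% down). Tie1 had 0 counts with A485 against 43 counts with DMSO, at least 16.7-fold lower with 3 counts as the floor.

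**Figure D4:**
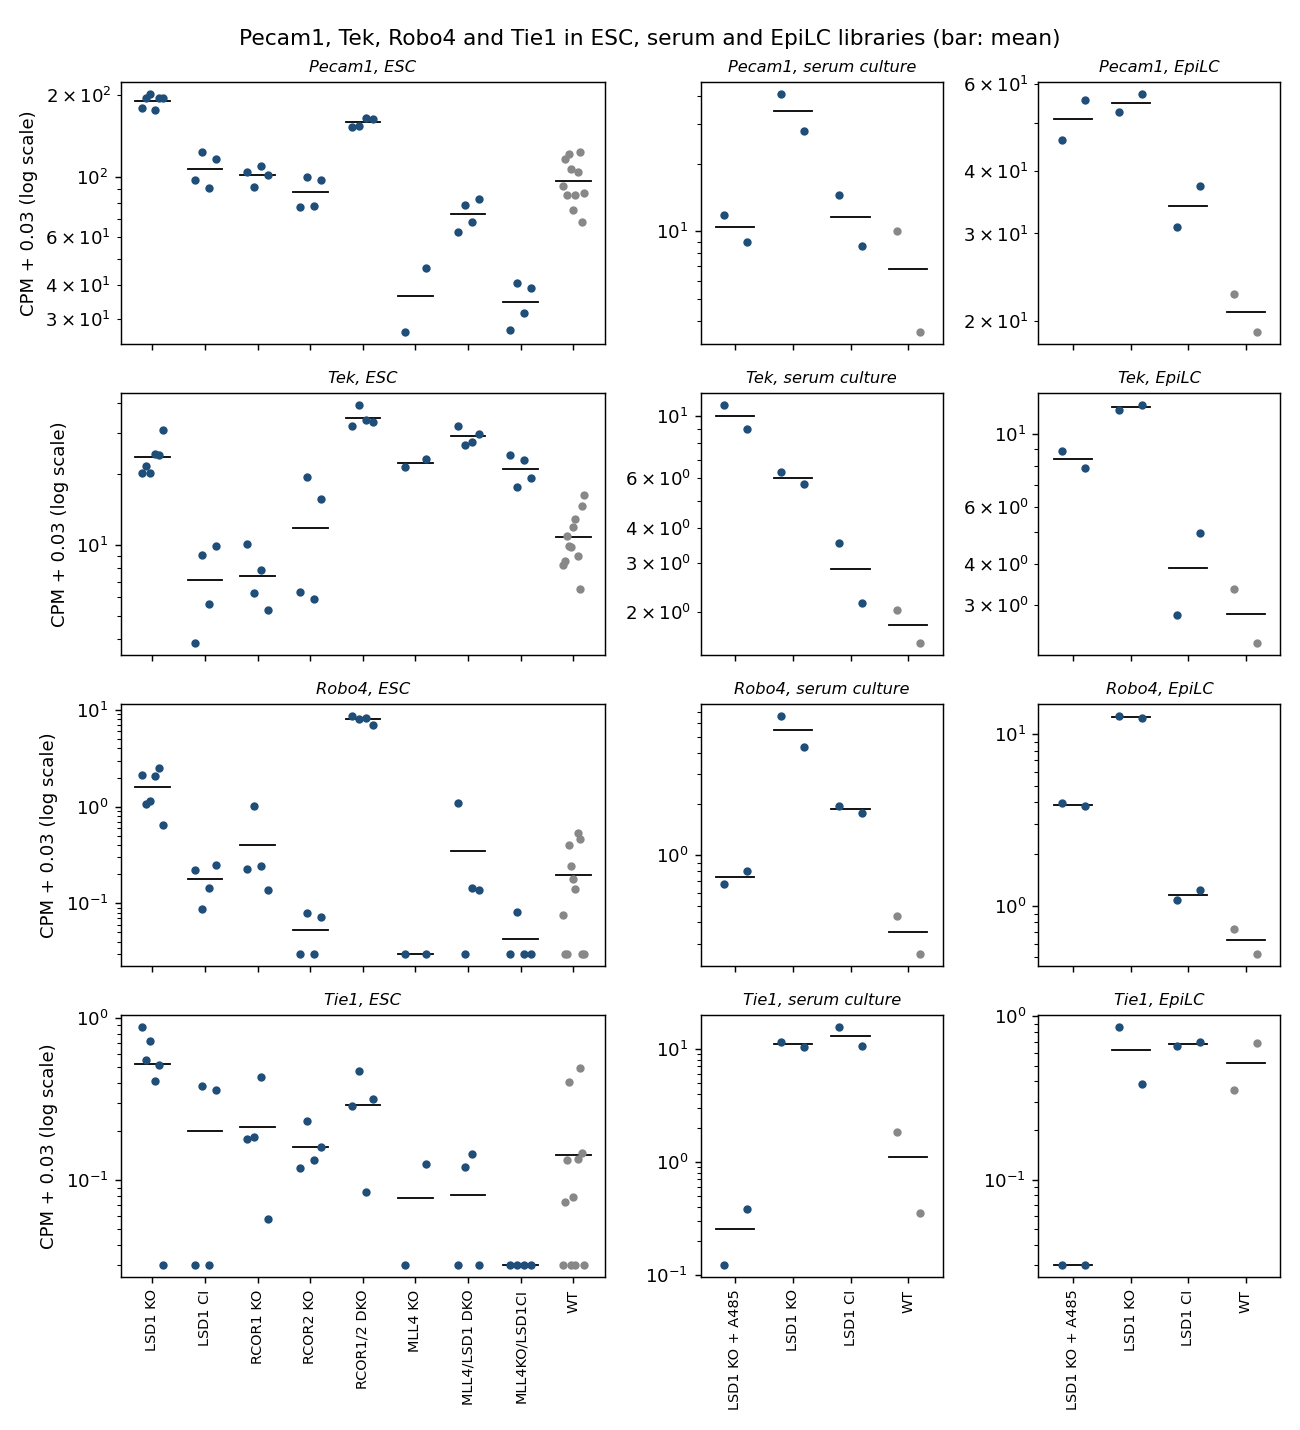
Pecam1, Tek, Robo4 and Tie1 in naive ESCs, serum cultures and EpiLCs, in CPM on a log axis, each point a library and each bar a group mean; the serum and EpiLC groups of LSD1 KO, LSD1 CI and WT cells are the DMSO groups. Robo4 in LSD1 KO cells lies above WT in all 3 cultures, with 12.6 and 12.4 CPM in EpiLCs against 0.701 and 0.494 CPM.

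Robo4 and Tek were called up in LSD1 KO cells in ESCs, in serum cultures and in EpiLCs. In untreated EBs neither was called in LSD1 KO cells, Robo4 having a log2 fold change of 1.46 (adjusted p = 0.0806) and Tek -0.08. These comparisons rest on different libraries in each culture, and only the contrast of EBs with ESCs was tested: it was -1.80 for Robo4 (SE 1.05, adjusted p = 0.163) and -1.28 for Tek (SE 0.83, adjusted p = 0.212), so the LSD1 KO difference of either gene was not shown to differ between EBs and ESCs.

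Over the 34 group means of log2(CPM + 1), each gene was set beside 13330 genes that reached 5 CPM in some group. Aplnr was most like Prrx1, Lhx1 and Cyp26a1 (Pearson's r 0.991, 0.990 and 0.987), Nrp1 most like Adamts12, Bmp5 and Foxf1 (0.986, 0.986 and 0.985), and Kdr most like Klhl6, Unc5c and Bmper (0.982, 0.980 and 0.977). Flt1 was most like Sel1l3, Reln and Stbd1 (0.959, 0.955 and 0.952). These values are set mainly by the contrast of EBs with the other cultures, which the points share, and Kdr, Nrp1 and Aplnr had r = 0.96 with each other. Pecam1 stood closest to Arl14epl, Rasa4 and Ddc (0.936, 0.930 and 0.930) and had r = 0.75 with Tek and -0.78 with Flt1. Cdh5 stood closest to Gucy1a1, Twist2 and Igsf11 (0.937, 0.934 and 0.929), Tek to Arid5b, Txlnb and Pof1b (0.878, 0.862 and 0.812), Etv2 to Rasgrp3, Cubn and Zfpm2 (0.887, 0.849 and 0.846), Robo4 to Arhgdib, Dnah6 and Churc1 (0.858, 0.804 and 0.803) and Tie1 to Plac1, Stox1 and Ccser1 (0.801, 0.797 and 0.786). By Spearman's rank correlation the first gene was the same for Robo4 (Arhgdib) and Etv2 (Rasgrp3), and another for each of the other 8 genes.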

How the data were processed

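RNA-seq reads had been trimmed, aligned to mm9 with STAR 2.7.9a, freed of duplicates with Picard 2.25.5 and counted over exons by the authors, and the deposited values are raw counts per gene and library, not normalized. Between 72.2% and 84.7% of small counts were even, so mates of a pair may have been counted apart. From these counts CPM was computed over all genes listed. Fits were made in edgeR 4.0.16 (R 4.3.3) with TMM scaling, filterByExpr and the robust quasi-likelihood test, and p-values were adjusted by Benjamini-Hochberg over all genes tested. Separate fits held the untreated EBs, the EBs with DMSO or A485, the untreated ESCs, the DOX lines, the ESCs with DMSO or A485, the serum groups and the EpiLC groups. Comparisons of EBs with ESCs and the interactions came from a further fit of untreated ESC and EB groups, without the MLL4 mutants. The study used DESeq2, which served here as an alternative (version 1.42.0). Calls needed an adjusted p under 0.01 and a log2 fold change beyond 1. In simulated counts of the RCOR1/2 DKO EB and WT EB libraries (16605 genes) 99% of genes changed by a log2 fold change of 2 and 100% of those changed by 4 were recovered. The simulation gave every gene the same set spread and changed only genes with ample counts in WT EBs. Its recovery therefore does not carry over to the 10 genes, to genes with few counts or to smaller groups, and an uncalled gene is not shown to be unchanged. The 10 genes are named throughout. From the lists of ligands, surface genes and factors, up to 4 called genes with the smallest adjusted p were named for each comparison. Members and lists were chosen with earlier results of these data known. DOX replicate numbers paired the libraries of LSD1Res (r 0.637 to 0.684 between deviations of same-numbered libraries) and DKO+LSD1 (0.557 to 0.631). A block for the replicate number left 0 calls in each. That block was shared by the DOX lines, although same-numbered libraries differed by line. Tek without DOX was at 21.95, 25.72, 6.747 and 7.841 CPM in libraries 1 to 4 of LSD1Res. In those of DKO+LSD1 it was at 29.71, 29.05, 37.97 and 41.35 CPM. The difference with DOX within the pairs of a line was thus not tested. Intervals and floors cover counting error only. Whether the ranges of libraries overlapped is given as a description, since the share of all genes without overlap was not counted. Other settings tried were another scaling, no filter, halved counts, no Rn45s, a term for the unplaced-contig split, only the compared groups, a replicate block and leaving out each library.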

Additional observations from a re-analysis of the deposited data

Results flagged for a closer look

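In each group of 4 to 10 libraries, genes averaging at least 1 CPM there had their highest and lowest level compared with its nearest neighbour by Dixon's ratio. Over 86 sets of 1 gene and 1 group, 1 library stood apart in 9 sets, these being 4 different libraries. By chance about 1 in 20 such sets would if levels were normally spread, which CPM need not be, and the sets share libraries and are not independent. In LSD1 CI EBs library 4 stood above the others with 66.2 CPM of Cdh5, 25.6 CPM of Tek and 26.0 CPM of Tie1, and in RCOR1 KO EBs library 3 did so with 34.9 CPM of Cdh5, 19.7 CPM of Tek and 10.6 CPM of Tie1. In WT EBs library 5 stood above the others with 28.1 CPM of Cdh5 and 8.40 CPM of Tie1. In RCOR1/2 DKO EBs library 1 stood above the others with 1.98 CPM of Nrp1. Of these 9 sets, 8 concern Cdh5, Tek or Tie1.

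The mutant minus WT difference was tested for a change between EBs and ESCs, and 12 values passed the thresholds of the edgeR test, all on the log2 scale with negative values where the difference was lower in EBs. For LSD1 KO these were Nrp1 at -7.82, Kdr at -4.25 and Pecam1 at -1.49. For RCOR2 KO they were Kdr at -5.26, Nrp1 at -4.89, Etv2 at -3.14 and Flt1 at -2.12. For RCOR1/2 DKO they were Nrp1 at -11.42, Kdr at -6.92, Robo4 at -3.55, Flt1 at -2.67 and Pecam1 at 1.61.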

How the results depend on the processing

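Counts below are of the 10 genes called. Fitting only the compared groups gave 0 calls in place of 5 for RCOR2 KO against WT EBs, 7 in place of 4 for RCOR1/2 DKO against RCOR2 KO EBs, 7 in place of 3 for RCOR1/2 DKO EBs against ESCs, 1 in place of 4 for the RCOR2 KO interaction, 0 in place of 1 for LSD1 CI against WT in ESCs and in serum, and 1 in place of 2 for MLL4/LSD1 DKO ESCs. In LSD1 KO against LSD1 CI EBs, DESeq2's size factors, no filter on low counts, leaving out Rn45s and the replicate block each gave 1 call in place of 2. DESeq2 gave 7 calls for RCOR1/2 DKO against RCOR2 KO EBs, 4 in place of 2 for LSD1 KO serum, 2 in place of 1 for LSD1 CI serum and 1 in place of 0 for LSD1 CI EpiLCs, where no filter also gave 1. Halved counts gave 5 in place of 3 for LSD1 KO ESCs and 2 for LSD1 CI serum. A term for the unplaced-contig split gave 4 in place of 7 for LSD1 KO EBs against ESCs and 0 for LSD1 CI ESCs. The cause of these changes was not tested.

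Outside the 2 paired DOX lines no comparison was taken as paired, but the rule could not be met by comparisons with only 2 shared replicate numbers. In those, the mean r ran from -0.06 (MLL4 KO against WT ESCs) to 0.524 (LSD1 KO ESCs with and without DOX), so pairing there was not decided. With the replicate block, calls numbered 1 in place of 2 for LSD1 KO against WT EBs, 3 in place of 5 for RCOR2 KO against WT EBs, 2 in place of 4 for the RCOR2 KO interaction, 0 in place of 1 for LSD1 CI ESCs and 4 in place of 2 for LSD1 KO serum, and, apart from LSD1 KO against LSD1 CI EBs, given above, the counts of the other comparisons stayed within 1.5 times their main count.

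Libraries were left out in turn from each group but WT ESCs, whose 11 libraries were all kept in every set. This gave, against WT EBs, 1 to 2 calls for LSD1 KO, 0 to 5 for RCOR2 KO, 5 to 6 for RCOR1/2 DKO and 0 for LSD1 CI and RCOR1 KO. It gave 1 to 2 for LSD1 KO against LSD1 CI EBs, 1 to 4 for RCOR1/2 DKO against RCOR2 KO EBs, 5 to 6 for LSD1 KO against WT EBs with DMSO and 6 to 8 for A485 in EBs. For EBs against ESCs it gave 8 to 9 in WT, 6 to 7 in LSD1 KO, 8 in LSD1 CI, 7 to 8 in RCOR1 KO, 5 to 6 in RCOR2 KO and 3 in RCOR1/2 DKO, and for the interactions 2 to 3 (LSD1 KO), 1 to 4 (RCOR2 KO), 5 (RCOR1/2 DKO) and 0 (LSD1 CI and RCOR1 KO). In ESCs it gave 3 to 4 for LSD1 KO, 0 to 1 for LSD1 CI, 0 for RCOR1 KO and RCOR2 KO, 3 for RCOR1/2 DKO, 1 for MLL4 KO, 2 for MLL4/LSD1 DKO, 2 to 3 for MLL4 KO/LSD1 CI and for A485, and 0 for each DOX line. In serum it gave 2 to 4 for LSD1 KO, 1 to 2 for LSD1 CI and 1 to 2 for A485, and in EpiLCs 3 to 4, 0 to 1 and 2. Kdr in RCOR2 KO EBs against ESCs ran between -0.52 and 2.54 on the log2 scale when each EB or ESC library was left out, and was -0.52 without RCOR2 KO EB library 1. No other called gene changed sign under any setting; of the leave-one-out values of single called genes, 737 kept the threshold and 82 lost it.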
